A study of Mus musculus with 6 samples.

Results

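The genes described here are 44 mitosis and G2/M genes, a list of names chosen by function: the cyclins and kinase of mitotic entry, the regulators of the anaphase-promoting complex, and the genes of the spindle, kinetochore and cytokinesis. All 44 were found by name among the 21938 genes of the deposited expression table. The tissue was soft palate, the part of the palate that lies behind the bone and carries muscle, from mouse embryos at E14.0, sequenced as bulk RNA. There were 3 mutant libraries (Osr2-Cre;b-cateninfl/fl, replicates 5, 6 and 7), in which a recombinase driven from the Osr2 locus, active in palatal mesenchyme, deletes β-catenin. The 3 control libraries (replicates 1, 2 and 3) carried the same floxed alleles, b-cateninfl/fl, without the Cre, per the extraction protocol, although the labels' genotype field calls them wild type. Cells of the palate that do not express Osr2 keep β-catenin in the mutants, and no source used here says whether a library came from 1 embryo or several. The p-values therefore measure how far these libraries spread, which may be partly technical.

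A cell enters mitosis when cyclin B binds the kinase Cdk1 and Cdc25 phosphatases remove the inhibitory phosphates from it. Plk1 and the Aurora kinases then drive assembly of the spindle, kinetochores attach chromosomes to microtubules, and the spindle checkpoint holds the anaphase-promoting complex (APC/C) until attachment is complete. The APC/C, a ubiquitin ligase, then marks securin and cyclin B for destruction, and the cell divides. The RNAs of these genes are made mostly in G2 and mitosis, so that in bulk tissue their level reflects how many cells are dividing as well as how much RNA each makes, and fewer dividing cells and less RNA per cell cannot be told apart.

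Many of these genes are known to share promoter elements: CCAAT boxes, which bind the factor NF-Y, and the cell cycle genes homology region (TTTGAA or TTTAAA), which binds the MuvB complexes that repress or activate them through the cycle. The 250 bases before the annotated start of Ube2c, the member with the largest change, of Cdc20, an activator of the APC/C, and of the mitotic kinases Cdk1 and Plk1 were taken from RefSeq on GRCm38.p6 to show these elements. They are given 5′ to 3′ on the gene's strand, with each CCAAT box and homology region match, on either strand, in capitals.
Ube2c, chr2:164769679-164769928, + strand: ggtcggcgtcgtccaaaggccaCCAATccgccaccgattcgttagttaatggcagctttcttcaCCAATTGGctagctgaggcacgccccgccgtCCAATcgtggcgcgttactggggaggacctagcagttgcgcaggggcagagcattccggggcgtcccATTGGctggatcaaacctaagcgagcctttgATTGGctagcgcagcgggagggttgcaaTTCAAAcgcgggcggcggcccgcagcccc
Cdc20, chr4:118437344-118437593, - strand: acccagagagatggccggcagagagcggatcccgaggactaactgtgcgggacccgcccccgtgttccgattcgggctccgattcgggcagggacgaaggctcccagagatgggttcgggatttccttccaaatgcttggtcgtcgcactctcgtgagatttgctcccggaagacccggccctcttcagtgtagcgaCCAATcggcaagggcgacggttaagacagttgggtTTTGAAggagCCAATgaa
Cdk1, chr10:69352913-69353162, - strand: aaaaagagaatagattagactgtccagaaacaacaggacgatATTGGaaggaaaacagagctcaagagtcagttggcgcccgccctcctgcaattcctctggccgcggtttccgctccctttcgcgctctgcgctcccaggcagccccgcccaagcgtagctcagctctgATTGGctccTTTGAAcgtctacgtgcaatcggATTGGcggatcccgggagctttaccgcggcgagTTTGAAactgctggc
Plk1, chr7:122159185-122159434, + strand: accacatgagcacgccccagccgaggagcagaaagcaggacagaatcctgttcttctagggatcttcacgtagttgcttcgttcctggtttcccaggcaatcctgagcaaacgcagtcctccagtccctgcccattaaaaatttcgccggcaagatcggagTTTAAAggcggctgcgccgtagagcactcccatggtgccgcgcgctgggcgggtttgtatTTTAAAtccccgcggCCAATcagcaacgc

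The Ube2c window holds 6 CCAAT matches, a pair of which overlap on opposite strands, and 1 TTTGAA match, read as TTCAAA on this strand. The starts are those of RefSeq, and the GENCODE start of Ube2c, used further below, lies earlier, at 164769898. The last bases of this window, with the TTTGAA match, are therefore within the gene in GENCODE. The Cdc20 and Cdk1 windows also run past their GENCODE starts. Cdc20 has 2 CCAAT and 1 TTTGAA, Cdk1 has 3 CCAAT and 2 TTTGAA, and Plk1 has 1 CCAAT and 2 TTTAAA. RefSeq windows of 300 bases, which add the 50 bases after the start, were matched for 37 of the 44 members; Aurkb, Ccna2, Cdc25c, Incenp, Kif20a, Spc24 and Tpx2 were not matched. CCAAT on either strand was found in 28 of the 37 members (75.7%) and in 42.4% of 12979 genes of the table with a window. The homology region on either strand was found in 31 of 37 (83.8%), against 23.6% of those genes, and the 6 without it were Bub1, Cdc25b, Mad2l1, Nuf2, Nusap1 and Pttg1. Before the start alone, that count was 18 of 37 (48.6%, against 21.7%), so that for many members the match lay in the first 50 bases after the start. These are matches of letters, given as a description.

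All but 1 of the 44 genes failed to pass the test between genotypes, and their summed level was close in the groups. The summed level was 3557, 4054 and 4749 CPM (reads per 1000000 counted reads of the library) in mutant replicates 5, 6 and 7, against 3908, 4022 and 4199 CPM in control replicates 1, 2 and 3. The mutants lay on both sides of the controls, and their spread (4120 ± 599 CPM, SD, n = 3) was wider than that of the controls (4043 ± 147 CPM, n = 3). The most abundant members weigh most in this sum: Mki67 and Top2a together averaged 1383 CPM in mutants and 1329 CPM in controls. Of the 44 members, 1 fell and 0 rose at an adjusted p below 0.05 in limma, a linear model fitted to log2(CPM + 1) of all genes with Benjamini-Hochberg adjustment. Of all genes measured, 0.479% passed, 0.283% lower and 0.196% higher. That call rests on few libraries: over all genes, 0 passed without control replicate 1 or 3 or mutant replicate 5 or 6, 2 without mutant replicate 7, and 452 without control replicate 2.

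At an unadjusted p below 0.05, 4 of the 44 members (9.09%) passed, against 21.4% of the table and 23.3% of the genes with a mean of at least 10 CPM. Ube2c, Ccna2 and Plk1 were lower (8.07% of all genes were lower at this threshold) and Ect2 was higher (13.4% of all genes). The count was 1 without control replicate 2 and 2 without control replicate 3. In 5 members (Ube2c, Ccna2, Plk1, Fbxo5 and Ccnb1) every mutant lay below every control, and in 2 (Cenpf and Cenpe) every mutant lay above. Groups that did not overlap were found for 27.8% of the table and 29.5% of genes with a mean of at least 10 CPM. Of the members, 24 had a negative log2 change and 20 a positive one, with a median of -0.055, beside 0.043 over all genes and -0.021 over genes with a mean of at least 10 CPM. The median was 0.031 without mutant replicate 5 and -0.14 without mutant replicate 7, and -0.086 and -0.016 without control replicates 1 and 3. For 40 of the 44 members the 95% interval of the change, not adjusted for the number of genes, lay within 1.5-fold in either direction. The 4 whose interval reached further were Ube2c, Plk1, Cdc25b and Cdc20.

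**Figure D1:**
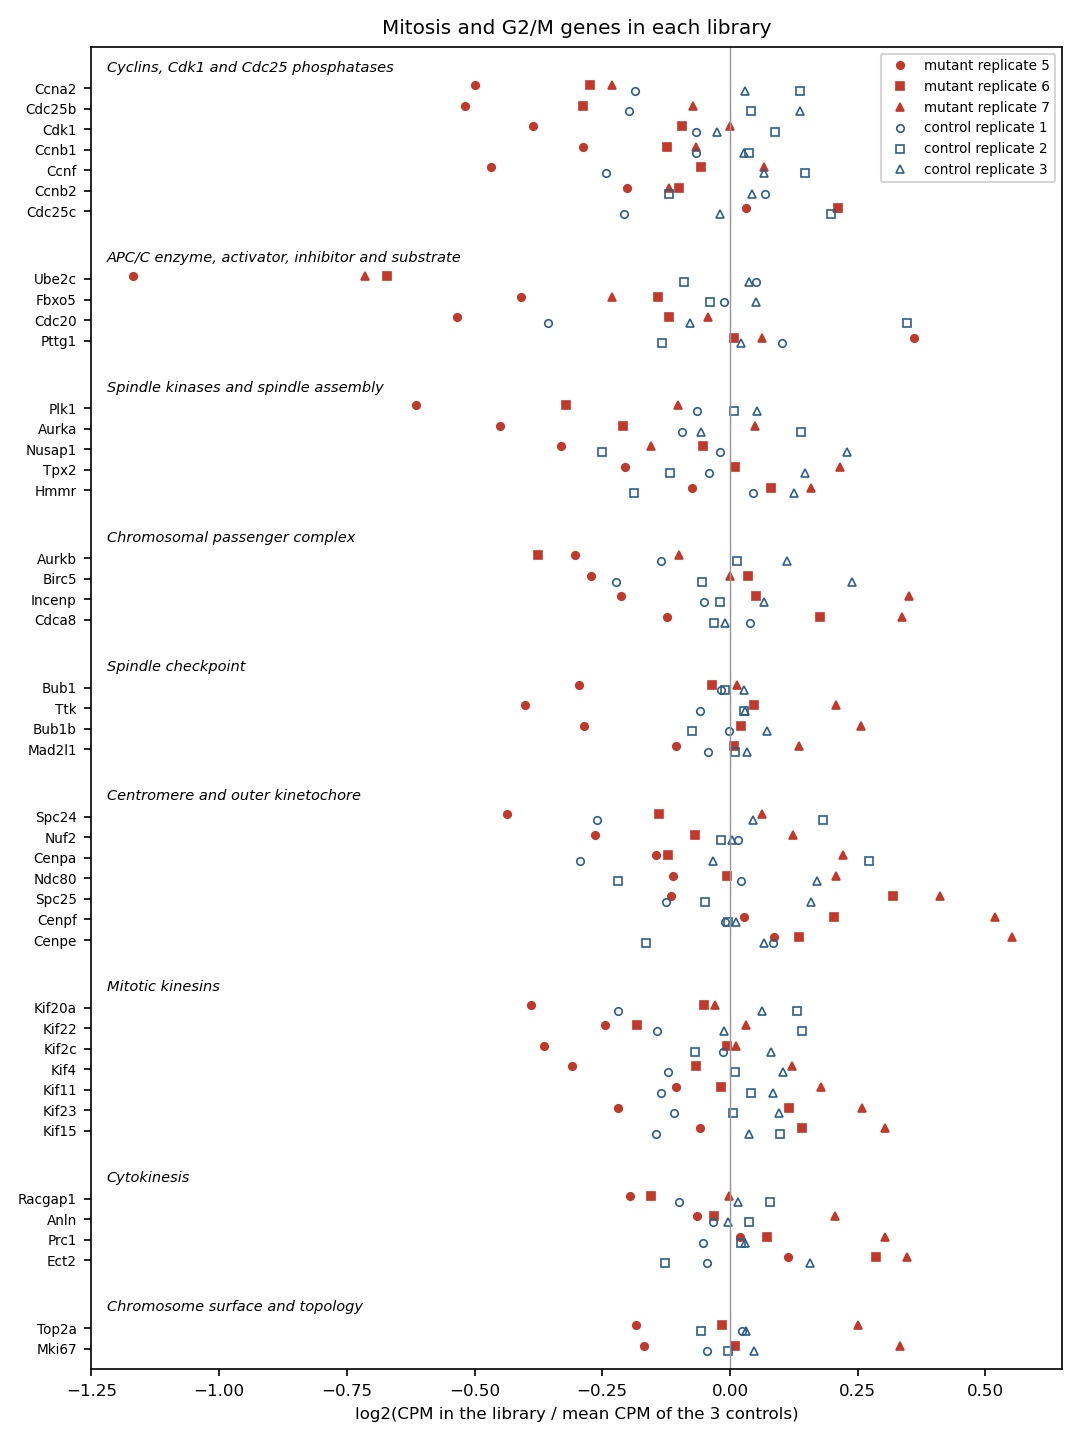
Level of each of the 44 genes in each library, as log2 of its CPM over the mean CPM of the 3 controls, grouped by role. Filled red points are the 3 mutants and open blue points the 3 controls, with a symbol for each replicate. Ube2c stands to the left of all other genes in the 3 mutants, and mutant replicate 5 lies to the left of mutant replicate 7 in most rows.

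The APC/C genes of the list held the member that changed. Ube2c, the ubiquitin-conjugating enzyme that starts the chains the APC/C builds, measured 32.4, 45.8 and 44.4 CPM in the mutants (replicates 5, 6 and 7, the order used throughout), against 75.5, 68.5 and 74.8 CPM in the controls (replicates 1, 2 and 3). Every mutant lay below every control, a pattern shown by 10.8% of all genes. The ratio of the means was 0.560, and the log2 change was -0.83 ± 0.14 (SE), with a 95% interval of the fold of 0.452 to 0.695 and an adjusted p of 0.0448. The adjusted p was 0.0507 with a pseudocount of 0.1, and 0.0860 with a prior variance without trend. With 1 library left out it was 0.122 and 0.114 (control replicates 1 and 3), 0.0691, 0.101 and 0.147 (mutant replicates 5, 6 and 7) and 0.0441 (control replicate 2). The log2 change stayed between -0.92 and -0.68 in these 6 fits. Ube2c was also the 1 member among the 2432 genes of the authors' deposited filtered table, which holds 11.1% of the genes of the full table and whose filter no source used here states.

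Ube2c shares sequence with a muscle gene. It lies on chromosome 2 from 164769898 to 164778822 on the + strand (GENCODE vM21, GRCm38). The last exon of its longer annotated form, 164777190 to 164778822, runs across exons of Tnnc2, the fast skeletal muscle troponin C, which lies on the opposite strand from 164777161 to 164779967. The overlap is 592 bases, 74% of the exonic bases of Tnnc2 and 22.8% of those of Ube2c. Tnnc2 measured 22.9, 36.8 and 24.9 CPM in the mutants, against 77.9, 39.4 and 60.5 CPM in the controls (log2 change -1.02 ± 0.25, adjusted p = 0.0857). Within each group the libraries stood in the same order for both genes: replicate 6 was the highest and replicate 5 the lowest mutant, and replicate 1 the highest and replicate 2 the lowest control. By group mean, Ube2c was at 40.9 CPM in mutants and 72.9 CPM in controls, and Tnnc2 at 28.2 and 59.3 CPM. Mutant replicate 6 and control replicate 2 measured 36.8 and 39.4 CPM for Tnnc2, and 45.8 and 68.5 CPM for Ube2c.

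Other muscle genes were lower too. All 12 genes of a skeletal muscle list (such as Myod1, Myog and Acta1) were lower at an unadjusted p below 0.05, against 8.07% of all genes. Of the 12, 8 fell at an adjusted p below 0.05, against 0.283% of all genes. None of the 12 was at 0 in any library. Their summed level was 1233, 1769 and 1391 CPM in the mutants, against 4882, 2331 and 3387 CPM in the controls. Within each group these sums stood in the same order of libraries as Ube2c and Tnnc2. No source used here says whether reads were counted by strand, and without strand the reads of the shared bases cannot be assigned to Ube2c or to Tnnc2. How much of the Ube2c value comes from them was not tested. Exonic overlap of at least 10% with another gene of the table was found for 5 other members. These were Kif20a with Cdc23 (29.3% of the exonic bases of Kif20a), Kif4 with Pdzd11 (15.1%), Cdc25c with Gm3550 (12.7%), Ccna2 with Exosc9 (12.5%) and Prc1 with Rccd1 (11.1%), each on the opposite strand. The unadjusted p of these 5 partners ran from 0.0958 to 0.556 in limma. Ccnb1, Ccnb2, Kif22 and Kif4 have annotated pseudogenes that carry their names, among which the counting could split reads.

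**Figure D2:**
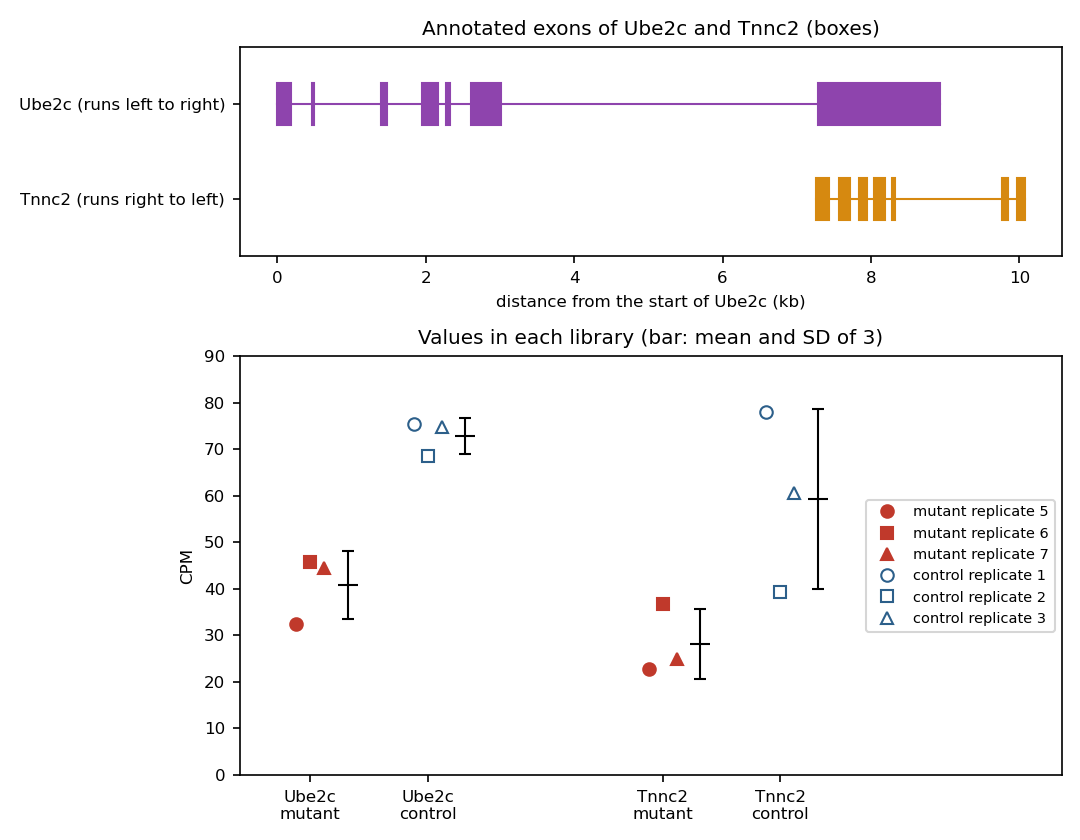
Top, annotated exons of Ube2c and Tnnc2 as boxes, drawn to scale by distance from the start of Ube2c in kb. Bottom, CPM of both genes in each mutant (filled) and control (open) library, with the mean and SD of 3 beside the points. The last Ube2c exon spans 5 of the Tnnc2 exons, and the mutants lie below the controls for both genes.

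The other APC/C regulators did not pass. Fbxo5, which inhibits the APC/C before mitosis, measured 21.0, 25.3 and 23.7 CPM in mutants and 27.6, 27.1 and 28.8 CPM in controls (log2 change -0.25 ± 0.11, adjusted p = 0.235). Cdc20, which activates the APC/C once the checkpoint is satisfied, measured 23.3, 31.0 and 32.7 CPM in mutants and 26.3, 42.8 and 31.9 CPM in controls. The groups did not overlap for Fbxo5. They overlapped for Cdc20, of which mutant replicate 5 lay below the controls and the other mutants among them (-0.20 ± 0.19, adjusted p = 0.584). Pttg1, securin, the inhibitor of separase that the APC/C destroys, was the lowest member, at 5.71 ± 0.775 CPM in mutants and 5.14 ± 0.419 CPM in controls (SD, n = 3 each).

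None of the cyclins, Cdk1 and its phosphatases passed, and 6 of these 7 genes had a negative change. Ccna2, cyclin A2, which acts in S and G2 phase, measured 69.5, 81.2 and 83.7 CPM in mutants and 86.4, 108.0 and 100.3 CPM in controls (log2 change -0.32 ± 0.11, unadjusted p = 0.0194 in limma, adjusted p = 0.157). Ccnb1, cyclin B1, measured 38.1, 42.7 and 44.42 CPM in mutants and 44.44, 47.7 and 47.4 CPM in controls (-0.15 ± 0.097, adjusted p = 0.395). Neither gene's groups overlapped, though mutant replicate 7 and control replicate 1 were nearly level for Ccnb1. Cdk1, the kinase of mitotic entry, measured 50.2, 61.4 and 65.5 CPM in mutants and 62.5, 69.7 and 64.4 CPM in controls. Mutant replicate 5 was the low library for Cdk1, and the groups overlapped (-0.16 ± 0.11, adjusted p = 0.469). Cdc25b, a phosphatase that activates Cdk1, measured 26.9, 31.6 and 36.6 CPM in mutants and 33.6, 39.6 and 42.4 CPM in controls (-0.28 ± 0.14, adjusted p = 0.287). The remaining members of this role overlapped between the groups. Ccnb2, cyclin B2, averaged 29.3 and 32.3 CPM in mutants and controls, Ccnf, an F-box protein with a cyclin fold, 36.4 and 40.0 CPM, and Cdc25c 13.6 and 12.2 CPM.

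Among the spindle kinases and assembly factors, Plk1, the polo-like kinase, measured 21.9, 26.8 and 31.2 CPM in mutants, against 32.1, 33.7 and 34.8 CPM in controls. The mutants lay below the controls, with mutant replicate 7 close to control replicate 1 (log2 change -0.33 ± 0.14, unadjusted p = 0.0375 in limma, adjusted p = 0.205). Aurka, Aurora A, which acts at the spindle poles, measured 19.6, 23.1 and 27.6 CPM in mutants and 25.0, 29.4 and 25.7 CPM in controls (-0.19 ± 0.14, adjusted p = 0.471). The groups of Aurka overlapped. Its activator Tpx2 averaged 129 ± 18.8 CPM in mutants and 128 ± 12.3 CPM in controls, and the microtubule-binding proteins Nusap1 and Hmmr 48.8 and 66.3 CPM in mutants and 55.1 and 63.6 CPM in controls. In the chromosomal passenger complex, which corrects wrong attachments and later directs cytokinesis, the kinase Aurkb measured 24.3, 23.1 and 28.0 CPM in mutants and 27.3, 30.2 and 32.4 CPM in controls (-0.25 ± 0.12, adjusted p = 0.269). Its partner Cdca8, borealin, measured 35.3, 43.4 and 48.5 CPM in mutants and 39.5, 37.6 and 38.2 CPM in controls, and so leaned the other way (0.13 ± 0.12, adjusted p = 0.589). The scaffold Incenp averaged 123 and 116 CPM and survivin, Birc5, 46.2 and 48.5 CPM in mutants and controls.

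None of the spindle checkpoint genes passed, and their group means were close. Bub1, a checkpoint kinase at kinetochores, measured 33.7, 40.3 and 41.7 CPM in mutants and 40.8, 41.0 and 42.1 CPM in controls (log2 change -0.10 ± 0.11, adjusted p = 0.610). Bub1b, part of the complex that holds back Cdc20, measured 80.1, 99.1 and 117 CPM in mutants and 97.5, 92.7 and 103 CPM in controls. The mutants of Bub1b spanned the controls on both sides, and the means were 98.6 CPM in mutants and 97.6 CPM in controls, with a 95% interval of the fold of 0.811 to 1.23. Ttk, the kinase that starts the checkpoint, measured 15.6, 21.4 and 23.9 CPM in mutants and 19.8, 21.1 and 21.1 CPM in controls (-0.045 ± 0.16, adjusted p = 0.894). Mad2l1, the protein that binds Cdc20 while attachments are missing, averaged 43.9 ± 3.68 CPM in mutants and 43.4 ± 1.17 CPM in controls (SD, n = 3 each).

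Centromere and kinetochore genes held the 2 members whose mutants all lay above the controls, a pattern of 17.1% of all genes. Cenpf, a large coiled-coil protein of the outer kinetochore, measured 317, 358 and 446 CPM in mutants, against 309, 310.1 and 313 CPM in controls. Cenpe, the kinesin that carries chromosomes to the spindle equator, measured 180.2, 187 and 248.9 CPM in mutants, against 180.1, 151 and 178 CPM in controls. In both genes mutant replicate 7 was far above the rest and mutant replicate 5 was close to the controls, and neither passed (log2 change 0.25 ± 0.12 and 0.26 ± 0.14, adjusted p = 0.281 and 0.302). Ndc80, which makes the microtubule contact of the kinetochore, measured 37.9, 40.8 and 47.3 CPM in mutants and 41.6, 35.2 and 46.1 CPM in controls (0.038 ± 0.13, adjusted p = 0.890). Its complex partners Nuf2, Spc24 and Spc25 averaged 48.9, 24.3 and 56.6 CPM in mutants and 51.1, 27.1 and 48.5 CPM in controls. Cenpa, the histone variant that marks centromeres, measured 40.2, 40.8 and 51.8 CPM in mutants and 36.2, 53.6 and 43.4 CPM in controls, with no offset between the groups (0.0034 ± 0.16).

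The mitotic kinesins did not pass in any case. Kif11, which pushes the spindle poles apart, measured 115, 122 and 139.8 CPM in mutants and 113, 127 and 131 CPM in controls (log2 change 0.021 ± 0.10, adjusted p = 0.929). Kif15, a kinesin with a backup role for Kif11, measured 72.9, 83.9 and 93.8 CPM in mutants and 68.7, 81.3 and 77.9 CPM in controls (0.13 ± 0.12, adjusted p = 0.546). Kif20a, which works at the central spindle, measured 52.9, 66.9 and 67.9 CPM in mutants and 59.6, 75.9 and 72.4 CPM in controls (-0.15 ± 0.13, adjusted p = 0.554). The groups overlapped for these 3 genes. Kif23, the motor of the centralspindlin complex, measured 74.6, 94.1 and 104 CPM in mutants and 80.5, 87.2 and 92.9 CPM in controls (0.053 ± 0.13, adjusted p = 0.842). The chromosome-arm kinesins Kif22 and Kif4 and the microtubule depolymerase Kif2c had log2 changes of -0.12, -0.080 and -0.11.

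Of the cytokinesis genes, Ect2 was the 1 member higher at an unadjusted p below 0.05. This exchange factor, which activates RhoA at the division plane, measured 52.6, 59.2 and 61.8 CPM in mutants and 47.1, 44.5 and 54.2 CPM in controls. Mutant replicate 5 lay below control replicate 3, so the groups overlapped (log2 change 0.25 ± 0.11, unadjusted p = 0.04999 in limma, adjusted p = 0.233). Prc1, which bundles the microtubules of the central spindle, measured 118, 122 and 144 CPM in mutants and 112, 118 and 119 CPM in controls (0.13 ± 0.096, adjusted p = 0.462). Anln, a scaffold of the contractile ring, had a log2 change of 0.037, and Racgap1, the partner of Kif23, one of -0.11.

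Mki67 and Top2a were the highest members. Mki67, the Ki-67 protein that coats mitotic chromosomes and serves as a marker of cycling cells, measured 753, 852 and 1067 CPM in mutants and 820.0, 845 and 875 CPM in controls (log2 change 0.059 ± 0.13, adjusted p = 0.832). Top2a, the topoisomerase that untangles sister chromatids, measured 425, 478 and 574 CPM in mutants and 490.2, 464 and 493 CPM in controls (0.018 ± 0.12, adjusted p = 0.947). For both genes mutant replicate 5 was below and mutant replicate 7 above every control. Per kb of annotated exon they were also the highest, at 88.5 and 54.6 CPM per kb in mutants and 84.1 and 53.5 CPM per kb in controls. Ube2c was next in controls (28.1 CPM per kb, with 15.7 in mutants), close to Tpx2 (27.7 in mutants and 27.4 in controls) and Incenp (28.4 and 26.8). A length that covers all annotated forms of a gene understates the level of a gene of which a short form is made.

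Within the mutants, most members stood in the same order of libraries, and the controls had a weaker shared order. Mutant replicate 5 was the lowest of the 6 libraries for 31 of the 44 members (70.5%), against 20.4% of the 11044 genes with a mean of at least 10 CPM. Mutant replicate 7 was the highest of the 6 for 21 members (47.7%), against 18.9% of those genes. Among the 3 mutants alone, replicate 5 was lowest for 42 members (95.5%, against 44.1% of those genes) and replicate 7 highest for 37 (84.1%, against 33.4%). Among the 3 controls alone, replicate 1 was lowest for 29 members (65.9%, against 31.7%). Control replicate 3 was highest for 24 (54.5%, against 31.5%) and lowest for 0. Among DNA replication genes, mutant replicate 5 was the lowest of the 6 for 30 of 43 genes of an S phase list, and mutant replicate 7 was the highest for 6. No label or file header used here gives a batch, litter or stage below E14.0 that would part these libraries. The counted reads, estimated from the step between low values, numbered 12272809, 13153506 and 15089306 in mutant replicates 5, 6 and 7 and 12502808, 10018607 and 12842666 in control replicates 1, 2 and 3. The part of depth in this order was not tested.

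**Figure D3:**
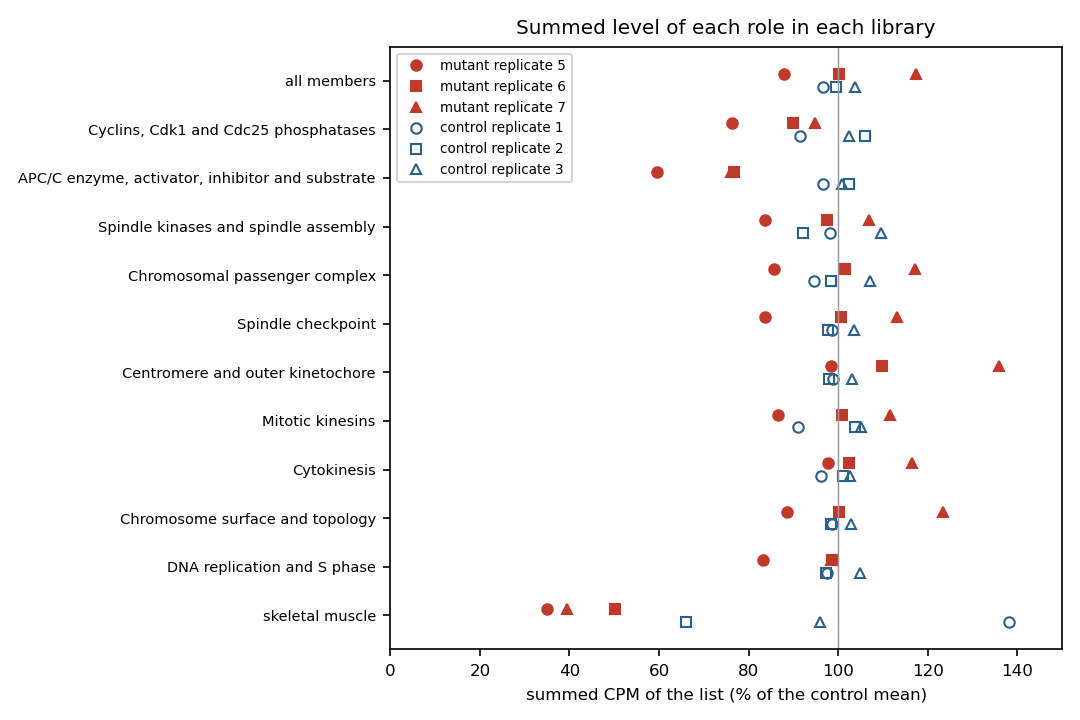
Summed CPM of the 44 genes, of each role, of an S phase list and of a skeletal muscle list in each library, as a percentage of the control mean. Filled red points are mutants and open blue points controls. The 44 genes lie at 88.0, 100.3 and 117% in mutant replicates 5, 6 and 7. The summed APC/C genes lie below the controls in the 3 mutants. Of that sum, Ube2c averaged 40.9 of 98.9 CPM in mutants and 72.9 of 139.6 CPM in controls. Taken singly, Cdc20 and Pttg1 overlapped between the groups, and Ube2c and Fbxo5 did not.

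Shorter members were more often lower and longer ones higher in the mutants. Across the 44 members the log2 change and the annotated exonic length had a Spearman rho of 0.61, or 0.60 without Ube2c. With a mean of at least 10 CPM, the rho was 0.68 across 43 members and 0.29 across 10829 genes. These are given as a description, since genes of the same 6 libraries are not independent. When those genes were split into 5 bins of equal size by length, the median log2 change ran from -0.12 in the shortest bin (up to 2690 bases) over -0.078, -0.031 and 0.022 to 0.090 in the longest (from 8349 bases). The members' medians in these bins were -0.20, -0.21, -0.045, 0.012 and 0.059, so that the shortest pair of bins was level. The 7 members of the shortest bin (Ccnb2, Cdc20, Fbxo5, Plk1, Aurka, Spc24 and Ube2c) had negative changes, and the 7 of the longest (Mad2l1, Cenpe, Top2a, Anln, Mki67, Kif15 and Cenpf) had positive ones. Pttg1, with 2000 exonic bases and a mean under 10 CPM, was outside the bins and had a change of 0.12. Ube2c, with 2600 exonic bases, lay far below the median of its bin. The part of length in the members' values was not tested.

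**Figure D4:**
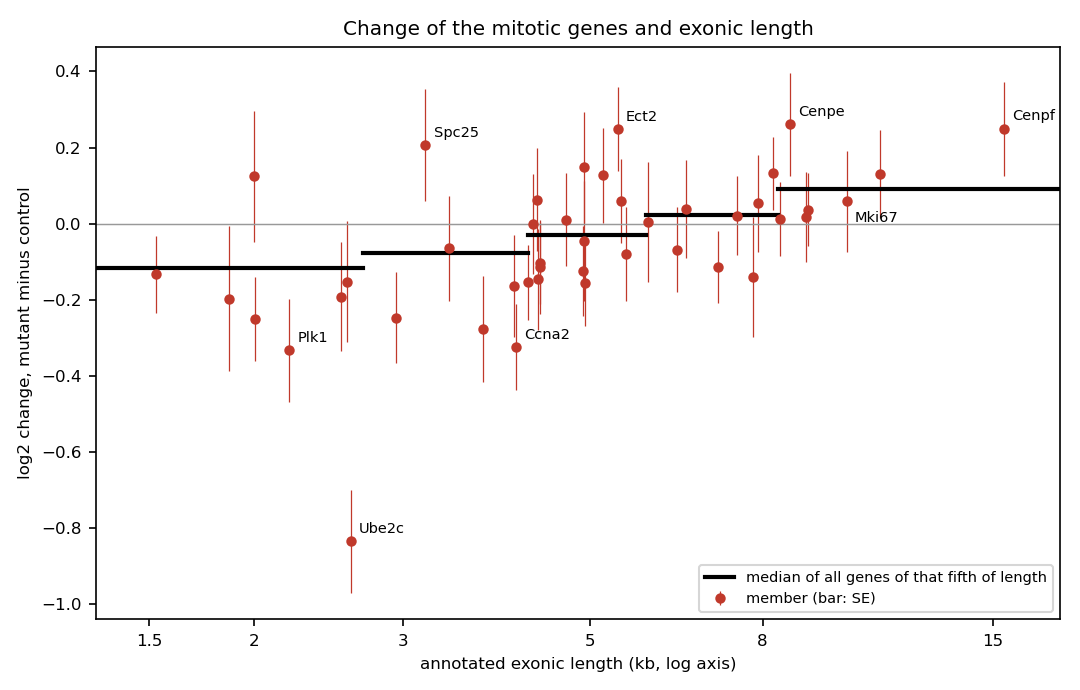
Log2 change, mutant minus control, of each of the 44 genes against its annotated exonic length in kb on a log axis, with the SE of each change. Black bars are the medians of all genes with a mean of at least 10 CPM in 5 bins of length, from -0.12 in the shortest to 0.090 in the longest. Most short members lie below 0 and most long ones above it, and Ube2c lies alone near -0.83.

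Other genes of the division machinery were read from 6 lists. Of 163 genes measured, 0 passed in limma (0.479% of the table did) and 22 (13.5%) had an unadjusted p below 0.05, 15 lower and 7 higher, against 21.4% of the table. The 22 were 10 without mutant replicate 7, 12 without control replicate 3 and 14 without mutant replicate 6. In the list of APC/C subunits, Fzr1 and Ube2s, 2 of 16 were lower at that threshold (12.5%, against 8.07% of all genes) and 0 higher. Neither of the 2 is a subunit. Ube2s, the enzyme that lengthens the chains Ube2c starts, measured 6.86 ± 1.87 CPM in mutants and 11.4 ± 3.48 CPM in controls (SD, n = 3 each; log2 change -0.65 ± 0.24, adjusted p = 0.172). Fzr1, the APC/C activator of late mitosis and G1, averaged 36.5 CPM in mutants and 44.3 CPM in controls (adjusted p = 0.208), and Anapc2, the cullin subunit of the complex, 114 and 127 CPM (unadjusted p = 0.108 in limma).

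Of 43 S phase genes, 33 had a negative change (median -0.098), 8 were lower and 0 higher at an unadjusted p below 0.05 (18.6% of the list, against 8.07% of all genes lower), and 12 had every mutant below every control (10.8% of all genes). Ccne1, cyclin E1, measured 27.7 ± 1.85 CPM in mutants and 37.5 ± 1.28 CPM in controls (log2 change -0.43 ± 0.099, adjusted p = 0.0781). Rrm2, a subunit of ribonucleotide reductase, measured 39.5 and 51.9 CPM (adjusted p = 0.0854) and Pold1, the catalytic subunit of DNA polymerase delta, 24.0 and 38.4 CPM (adjusted p = 0.104) in mutants and controls.

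In the list of the Cdk1 switch and G2/M transcription, 3 of 24 were lower at an unadjusted p below 0.05 (12.5%, against 8.07% of all genes) and 0 higher. These were E2f1, a factor of the G1/S switch (10.7 CPM in mutants and 15.8 CPM in controls), Gmnn, geminin, an inhibitor of replication licensing (13.91 and 18.03 CPM), and Cdkn1b, the Cdk inhibitor p27 (54.5 and 62.5 CPM), with adjusted p of 0.186, 0.203 and 0.209. Condensin and cohesin regulators had 2 of 16 higher (12.5%, against 13.4% of all genes) and 0 lower. Wapl, which releases cohesin, measured 272 and 220 CPM, and its partner Pds5a 278 and 239 CPM in mutants and controls, with Ncapd3, a condensin subunit, at 64.2 and 55.4 CPM. Of 32 other kinetochore and centromere genes, 1 was higher (3.1%, against 13.4% of all genes) and 0 lower. Mad1l1, the checkpoint anchor of Mad2l1, averaged 57.5 CPM in mutants and 44.8 CPM in controls (adjusted p = 0.136), Cenpp 11.8 and 9.37 CPM, and Zwilch 28.4 and 23.6 CPM. Of 32 other spindle and cytokinesis genes, 4 were higher and 2 lower (18.8% in either direction, against 21.4% of all genes). Mns1 had the smallest p among them, at 89.8 ± 14.4 CPM in mutants and 55.6 ± 6.23 CPM in controls (log2 change 0.68 ± 0.13, adjusted p = 0.0621), and is known for the axoneme of motile cilia rather than for division. Stmn1, stathmin, a tubulin-binding protein, measured 158 and 188 CPM, and the kinesin Kif20b 99.0 and 80.5 CPM, in mutants and controls.

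Markers of some other cell types differed between the groups as well. Ctnnb1 itself measured 585, 633 and 582 CPM in mutants, against 699, 784 and 671 CPM in controls (adjusted p = 0.183), and Osr2 measured 13.0, 19.4 and 15.9 CPM in mutants, against 34.5, 56.2 and 49.9 CPM in controls (adjusted p = 0.0285). The Cre is driven from the Osr2 locus in the mutants alone. For Osr2, effects of that allele and of the deletion therefore cannot be told apart. The 12 palatal mesenchyme markers were present in every library. Of these, 11 had a negative change (median -0.24), and Osr2, Twist1 and Barx1 were lower at an unadjusted p below 0.05 (8.07% of all genes were lower and 13.4% higher). Their summed level, most of it Col1a1 (2851 CPM in mutants and 2902 CPM in controls), was 4615, 4011 and 3090 CPM in mutants and 4832, 4317 and 3338 CPM in controls. Erythroid markers, of which 9 of 10 were lower at an unadjusted p below 0.05, summed to 791 to 1387 CPM in mutants and 1630 to 4816 CPM in controls. Multiciliated cell markers, of which 9 of 11 measured were higher at that threshold, summed to 357 to 490 CPM in mutants and 118 to 313 CPM in controls. Osteoblast markers were positive in 7 of 7 measured (median 0.88), 3 of them higher at that threshold, and summed to 809, 470.0 and 332 CPM in mutants and 149.9, 136 and 365 CPM in controls. Within the mutants, the palatal mesenchyme, osteoblast and endothelium sums ran opposite to the sum of the 44 genes, with replicate 5 highest and replicate 7 lowest. Within the controls, the mesenchyme and endothelium sums also ran opposite to it, with replicate 1 highest and replicate 3 lowest, but the osteoblast sum did not. The endothelium sums were 322, 253 and 234 CPM in mutants and 313, 300 and 198 CPM in controls. Most of the mesenchyme sum was Col1a1, at 3548, 2857 and 2148 CPM in mutant replicates 5, 6 and 7. The other mesenchyme markers were mixed in their order among the mutants. Prrx1, Msx1, Shox2 and Pdgfra stood in the order of Col1a1, whereas Twist1, Osr2, Tbx22, Meox2 and Pax9 had replicate 5 lowest. Prrx2 and Barx1 had replicate 6 highest and replicate 7 lowest. Neuron markers were negative in 8 of 8 (median -0.58), with none past that threshold (unadjusted p 0.0589 to 0.623 in limma), and summed to 739, 149.8 and 273 CPM in mutants and 437, 460.2 and 866 CPM in controls. Endothelium and Schwann cell markers had 0 of 8 each at that threshold (median -0.045 and -0.26). Epithelium had 1 of 10, higher (median 0.23), cartilage 1 of 8, higher (0.40), and macrophage 1 of 8, lower (-0.21). Of all genes, 21.4% stood at that threshold in either direction. No gene of these lists was at 0 in any library. The part of these cell types in the values of the mitotic genes was not tested.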

How the data were processed

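RNA of mouse soft palate at E14.0 was sequenced in 3 mutant and 3 control libraries. The submitters' processing notes name STAR, without a version, and the build mm10. No source used here gives the counting, its annotation, the library kit or the strand. The deposited tables hold CPM values, to which a constant of 0.0001 had been added, as found from the values; it was removed here, after which each library summed to 1000000. Rows were matched to samples through their titles, and 0 columns of per-sample values were left unused. Counted reads, estimated from the spacing of low values, were 10018607 to 15089306 per library, and 3 reads at 0.199 to 0.299 CPM. Of low values, 63.6 to 68.2% were whole reads within 0.02 of a read, so whole reads were not recovered and no count model was run. Read steps cover counting error only.

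The 3 mutants were set against the 3 controls with limma 3.58.1 (R 4.3.3), two-sided, with an intensity trend, on log2(CPM + 1) of all 21938 genes with no filter, and Benjamini-Hochberg adjustment over all of them at a threshold of 0.05. A log2 change on this scale understates the change of low genes. The fit was checked on simulated data in which noise was drawn for each gene independently. That check does not cover shifts that many genes of a library share, such as those described above. The replicate numbers are not shared between groups and the labels give no batch, so there was no block. Lists are described by counts and medians, with no test over a list.

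The 44 members, the lists and the naming rule were chosen with earlier results of these data known. The rule gave values in every library for 16 fixed members, each member past the threshold and the 2 smallest unadjusted p of each role, and for each other list its 3 smallest p. Cdca8, Bub1, Ttk, Cenpe, Cenpf, Kif15, Kif20a, Ect2, Cdc25b and Fbxo5 came in by their p. Tnnc2 was named after its values were seen, for its overlap with Ube2c, and so were the other overlapping genes. Of the planned lists, Dnai1 and Bglap are not analysed here. Exonic lengths and overlaps are unions of GENCODE vM21 exons (GRCm38, the assembly that mm10 names), and promoters are RefSeq windows on GRCm38.p6. A planned search of protein motifs was not run.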

Additional observations from a re-analysis of the deposited data

How the results depend on the processing

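Of the 44 members, 26 kept the sign of their log2 change in every alternative run. The signs of the other 18, whose changes were at most 0.14 in size, turned with 1 library left out, over these ranges: Ccnf (-0.25 to 0.014), Tpx2 (-0.093 to 0.12), Hmmr (-0.029 to 0.12), Incenp (-0.079 to 0.20), Birc5 (-0.17 to 0.059), Bub1b (-0.13 to 0.14), Ttk (-0.17 to 0.12), Mad2l1 (-0.047 to 0.071), Cenpa (-0.13 to 0.15), Ndc80 (-0.064 to 0.13), Nuf2 (-0.16 to 0.027), Kif11 (-0.059 to 0.082), Kif23 (-0.048 to 0.19), Kif2c (-0.18 to 0.0037), Kif4 (-0.18 to 0.030), Anln (-0.047 to 0.087), Mki67 (-0.078 to 0.17) and Top2a (-0.098 to 0.12). Bub1b also turned, to 0.019, when libraries were scaled by the median ratio of genes above the median level. Genes called over the whole table numbered 0 with a prior variance without trend, 174 with a robust one, 999 at an adjusted p below 0.1 and 0 to 452 with 1 library left out, against 105. Members called numbered 0 with a pseudocount of 0.1, 0 without trend and 0 to 1 with 1 library left out, against 1. Members at an unadjusted p below 0.05 numbered 1 without trend and 1 to 5 with 1 library left out, against 4. Their median log2 change ran from -0.14 to 0.031 with 1 library left out. In the other lists, 3 genes passed at an adjusted p below 0.1 and 0 to 1 with 1 library left out, against 0, and 14 without trend and 10 to 19 with 1 library left out had an unadjusted p below 0.05, against 22. In windows without the 50 bases after the start, TTTGAA was found in 13 members, TTTAAA in 6, either in 18 and either with CCAAT in 15, against 28, 10, 31 and 26; the shorter window is the cause by construction. The cause of the other changes was not tested. A filter at 1 CPM changed none of these counts by over 1.5 times. No paired analysis was possible because the groups share no replicate number. With 3 libraries a group at this depth, the 95% interval of 4 of the 44 members reached beyond 1.5-fold.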
